A study of Mus musculus
Mus spretus with 18 samples.

Results

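The proteasome is the barrel-shaped protease that degrades proteins tagged with ubiquitin. Its genes were taken as every gene whose symbol starts with Psm, a letter from a to g and a digit, which gave 53 of the 38924 genes with an expression value. The barrel, the 20S core, is built from alpha subunits and beta subunits, of which Psmb5, Psmb6 and Psmb7 carry the protease sites. In cells exposed to interferon, and in many cells of the immune system, these are replaced by Psmb8, Psmb9 and Psmb10 to form the immunoproteasome, which cuts peptides that suit presentation on MHC class I molecules. The 19S cap has a base of ATPases, a lid that removes ubiquitin, and other subunits, and further complexes such as PA28 (Psme1 and Psme2) and PA200 (Psme4) can bind the core instead. Of the 53 symbols, 49 are proteasome subunits, activators, chaperones or inhibitors and 3 were pseudogene symbols (Psmb5-ps, Psmb6-ps and Psmb7-ps2, all below 1 TPM in each library). The remaining gene, Psmc3ip, matched by name only and is a recombination factor.

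Levels were read as TPM, the share of a gene among all transcripts of a library after scaling for gene length, and splicing as percent spliced in (PSI), the share of transcripts that include an exon or retain an intron, given from 0 to 1. All libraries came from F1 hybrids of C57BL/6J and SPRET/EiJ, so each gene had an allele of either strain. Cerebral cortex, heart, kidney, lung and spleen came from 2 female animals aged 8 weeks, with a C57BL/6J mother and a SPRET/EiJ father, and embryonic stem cells (ESC) from 2 independent clones. A fibroblast line of the same cross was exposed for 4 h to 0.1 µM pladienolide B (PladB), which inhibits the splicing factor SF3B1, or to its solvent dimethyl sulfoxide (DMSO). The liver libraries, also at an age of 8 weeks, were taken from an earlier study by the authors and, by the authors' account, from the same animals. For liver, study and tissue cannot be told apart. The labels of the liver libraries give the strain names C57BL/7J and C57BL/8J. They were used as F1 hybrid libraries, as the study describes them. Each of the 9 groups had 2 libraries. Reads of heart, kidney and cortex were sequenced longer than those of spleen, lung and ESC, and the authors trimmed them to the same length before alignment. The length as sequenced and tissue cannot be told apart. The tissue markers were highest in their own tissue, and a library of an organ held all of its cell types, so that fewer cells of a type and less RNA per cell cannot be told apart.

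Of the 53 genes, 49 reached a mean of 1 TPM over the 14 tissue libraries, as did 19138 genes in all, and 48 did so over the 4 fibroblast libraries, of 13221. The genes below that level in tissues were the 3 pseudogene symbols and Psmb11, the catalytic subunit of the thymus, whose values ran from 0 to 0.226 TPM. Psma8, an alpha subunit best known from testis, was listed at 0 in the 4 fibroblast libraries. Together the 53 genes held 0.328% to 0.931% of all TPM, lowest in a liver library and highest in an ESC library. Skipped exon events were listed for 46 of the genes in tissues, with 318 of 100197 events, and for 43 genes in fibroblasts, with 296 of 67961 events. Retained introns, listed for fibroblasts, numbered 22 in 15 of the genes, of 2243.

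The immunoproteasome subunits were highest in spleen, followed by lung. Psmb8 and Psmb9 were below 3 TPM in ESC and fibroblasts, whereas Psmb10 was detected throughout. Psmb8 measured 279.1 and 238.0 TPM in the spleen libraries and 77.4 and 102.0 TPM in lung. It measured 19.3 and 20.8 TPM in liver, 13.4 and 19.4 in heart, and 10.4 and 14.4 in kidney. Cortex held 2.15 and 2.78 TPM, the fibroblasts between 1.55 and 1.73 TPM, and ESC 0.51 and 0.27 TPM. Both spleen libraries thus lay above both lung libraries, and lung above every other library, whereas the values of liver, heart and kidney overlapped in part. The spleen mean was 663 times the ESC mean.

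Psmb9, which takes the place of Psmb6, was likewise highest in spleen and lung, with 109.2 and 101.8 TPM in spleen and 36.9 and 46.7 TPM in lung. It was at 0.99 and 1.24 TPM in cortex, 2.47 and 1.44 TPM in ESC and 0.93 to 1.12 TPM in fibroblasts, and between 4.37 and 9.15 TPM in heart, kidney and liver. Psmb10, which takes the place of Psmb7, varied less. Its libraries held 211.6 and 179.6 TPM in spleen, 133.7 and 146.0 TPM in lung, 73.2 and 78.4 TPM in heart, 42.3 and 47.6 TPM in cortex, 25.3 and 28.3 TPM in kidney and 10.3 and 9.91 TPM in ESC. In DMSO-treated fibroblasts it was at 20.6 and 21.4 TPM. Psmb8 (chr17:34198195-34201454, mm10) and Psmb9 (chr17:34182030-34187330) are neighbours in the MHC region, and Psmb10 (chr8:105935728-105938392) lies on another chromosome.

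The constitutive catalytic subunits had another order and a narrower range. Psmb5 measured 329.2 and 361.7 TPM in ESC, Psmb6 347.1 and 285.5 TPM and Psmb7 444.5 and 416.0 TPM, above every library of the organs. In spleen they were at 155.6 and 154.4 TPM, 133.6 and 124.4 TPM, and 159.2 and 177.2 TPM, within the range of the other organs. The summed TPM of the 3 immunoproteasome subunits over that of the 3 constitutive subunits was therefore 1.34 and 1.14 in the spleen libraries and 0.621 and 0.733 in lung. It was 0.149 and 0.175 in heart, 0.153 and 0.158 in liver, 0.0984 and 0.106 in cortex and 0.0754 and 0.087 in kidney. The lowest ratios were those of ESC, 0.0118 and 0.0109, and the fibroblasts lay at 0.0612 and 0.0611 after DMSO.

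**Figure D1:**
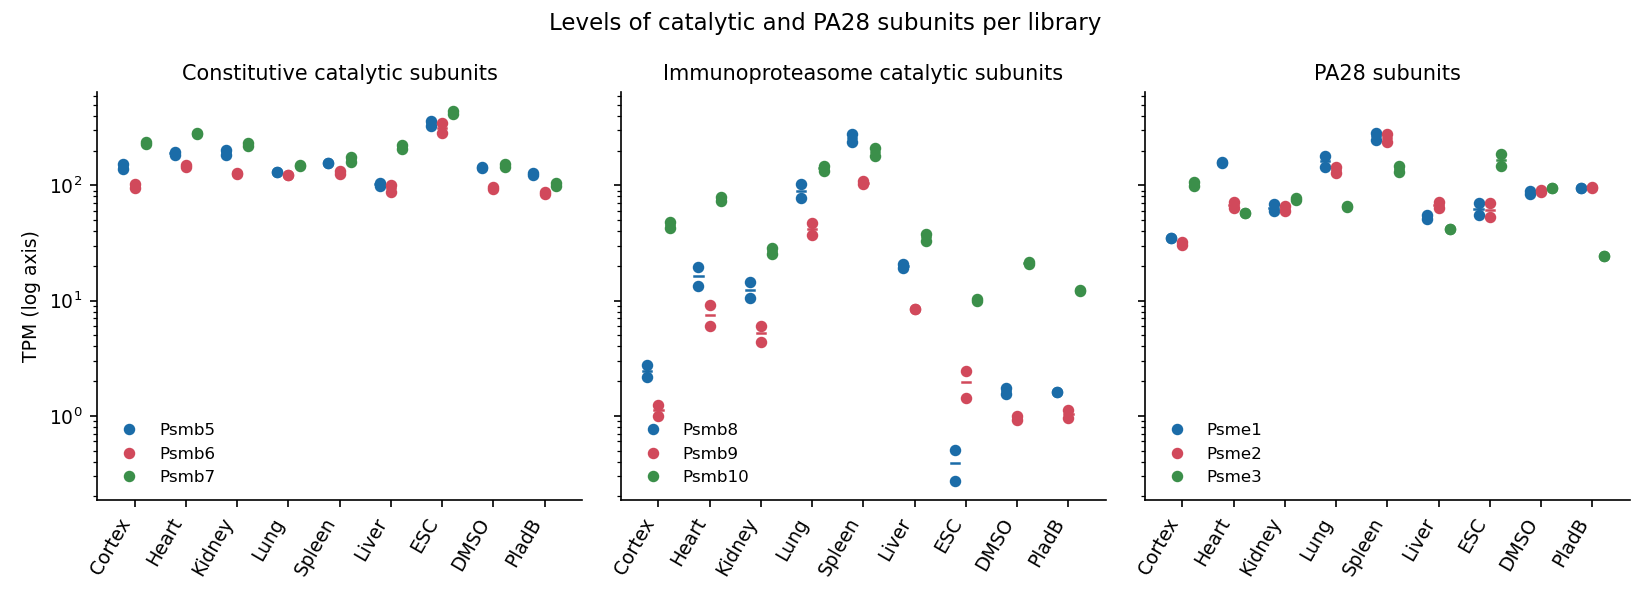
TPM on a log axis in each library of the 9 groups for constitutive catalytic, immunoproteasome catalytic and PA28 subunits. Each point is a library and each bar the mean of 2. Psmb8 runs from 0.27 TPM in an ESC library to 279.1 TPM in a spleen library, whereas Psmb5, Psmb6 and Psmb7 stay above 80 TPM throughout.

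Each tissue was compared with the mean of the 6 other tissues by limma on log2(TPM + 0.1), with p-values adjusted over the 19138 genes. Fold changes below are on that log2 scale, with the standard error after ±, and understate the change of genes near 0. The 7 comparisons share all their libraries and are not independent. In spleen, Psmb8 was higher by 4.89 ± 0.21 (adjusted p = 2.99e-08), Psmb9 by 4.21 ± 0.22 (adjusted p = 7.61e-08) and Psmb10 by 2.26 ± 0.09 (adjusted p = 1.61e-08). The 3 members of the PA28 alpha beta list were higher too, with Psme1 at 1.81 ± 0.10, Psme2 at 1.99 ± 0.11 and Psme2b at 1.96 ± 0.09. Psme1 and Psme2 lie next to each other at chr14:55578494-55581527 and chr14:55587440-55591101. Psme2b is a near-copy of Psme2 on chromosome 11, so reads of these genes may have been exchanged and the value of Psme2b is uncertain.

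The PA28 genes were at 282.1 and 248.5 TPM (Psme1) and 279.6 and 237.4 TPM (Psme2) in spleen, next to 34.8 and 34.6 TPM and 32.2 and 30.1 TPM in cortex. Heart differed from the other organs in the balance of the pair, with 156.4 and 157.7 TPM of Psme1 and 63.4 and 72.0 TPM of Psme2. Psme3, which forms the nuclear PA28 gamma complex, was higher in spleen by 0.85 ± 0.08, and 3 of the 4 assembly chaperones of the 20S core rose there, Psmg3 and Psmg4 by 1.07 each. PA200 (Psme4) was lower in spleen, by 0.96 ± 0.17 (adjusted p = 0.00047), as were Psmd1, a scaffold of the base, with -0.61 ± 0.12, and Psmb7, with -0.53 ± 0.06. Psmb5 and Psmb6 did not pass the test (adjusted p = 0.0717 and 0.337).

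In all, 28 of the 49 genes were higher in spleen and 9 lower, next to 46.1% and 33% of all genes. The median of the members was 0.21, and that of all genes 0.23. When each library was centred on its median, 11 were higher and 24 lower, against 32.3% and 45.9%. The immunoproteasome subunits, PA28, Psme3, Psmc3ip and 3 core chaperones made up those 11. The constitutive catalytic, ATPase and lid lists then held 3 of 3, 6 of 6 and 7 of 8 genes lower. Both spleen libraries lay above every other tissue library for 7 members (Psmb8, Psmb9, Psmb10, Psme1, Psme2, Psme2b and Psmg3), a property of 12.4% of all genes.

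Markers of leukocytes, like the immunoproteasome, were highest in spleen and then lung, but the other tissues had a different order. The 10 leukocyte genes summed to 17089 and 11966 TPM in spleen and 2052 and 2695 TPM in lung, 541 and 585 TPM in kidney, 190 and 349 TPM in heart and 157 and 199 TPM in liver. In ESC they summed to 137 and 158 TPM and in cortex to 100 and 113 TPM. Kidney had more marker TPM than heart and liver at a lower immunoproteasome ratio. ESC had a larger sum than cortex at a lower ratio, but the markers were divided. Ptprc (1.96 and 2.19 TPM in cortex) and Coro1a (1.03 and 1.28 TPM in ESC) were lower in ESC, and Cd79a and Cd3e were higher. Cd74 alone held 514.3 and 553.4 TPM in kidney, 153.7 and 277.6 TPM in heart and 142.2 and 180.6 TPM in liver. It made up most of each of these sums, and the order of kidney and heart rests on it. In fibroblasts they summed to 3.06 to 4.44 TPM, and Cd3e, Ms4a1 and Cd79b were at 0 in both DMSO libraries. Ptprc, the pan-leukocyte surface phosphatase, was at 381.8 and 347.5 TPM in spleen, 21.8 and 26.1 TPM in lung and 0.022 and 0.0106 TPM in ESC. Its values in kidney, 4.13 and 5.09 TPM, overlapped those in heart, 2.66 and 5.24 TPM. Single markers departed from the order of the sums, with Cd3e of the T cell receptor at 3.74 and 25.4 TPM in ESC and 7.93 and 9.19 TPM in lung. Coro1a, an actin regulator, was at 66.0 and 75.3 TPM in cortex and 76.1 and 79.4 TPM in lung. The part of leukocytes in the organ differences was not tested. Genes of antigen processing and of the interferon response, which act with the immunoproteasome, were higher in spleen for 13 of 13, led by the transcription factor Irf8 with 5.71, Nlrc5, the transactivator of MHC class I genes, with 4.52, and the peptide transporter Tap1 with 3.79. They had a median of 2.94. Of 11 other proteasome factors, 6 were higher in spleen and 2 lower, next to 46.1% and 33% of all genes. After centring the counts were 0 and 6, next to 32.3% and 45.9%. Nfe2l1, the factor that induces proteasome genes, was at -0.88 on the TPM scale.

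Lung followed spleen for the same genes. Psmb8 was higher by 3.10 ± 0.21 (adjusted p = 7.8e-07), Psmb9 by 2.65 ± 0.22 and Psmb10 by 1.70 ± 0.09, and Psme1, Psme2 and Psme2b by 0.97, 0.92 and 0.79. The 13 antigen processing genes were all higher there as well. Otherwise the proteasome genes ran lower, against a mean that includes ESC. Psma8, with 0.37 and 0.54 TPM in lung, was at -1.68 ± 0.18, Psme4 at -1.49 ± 0.17 and the core chaperone Psmg1 at -0.78 ± 0.07. Psma8 passed the TPM filter only through ESC, which is part of the mean, so its test adds no support to a fall in lung. In total 9 were higher and 22 lower, against 44.3% and 27.2% of all genes, and 6 and 39 after centring, against 29.9% and 44.5%.

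ESC had the highest level of most proteasome genes and the lowest tissue levels of Psmb8 and Psmb10. Psmb9 was lowest in cortex. For 40 of the 49 genes the tissue with the highest mean was ESC, for 7 it was spleen and for 2 another tissue. Both ESC libraries lay above every organ library for 39 members, against 20.9% of all genes, and below every one for Psmb8 and Psmb10, against 8.01%. Psmb5, Psmb6 and Psmb7 were higher by 1.21 ± 0.06, 1.41 ± 0.08 and 1.06 ± 0.06. Each of the 7 alpha, 4 noncatalytic beta, 6 ATPase and 8 lid genes was higher as well, with list medians between 0.97 and 1.24. For the ATPase Psmc1, which helps to open the core, the libraries held 457.3 and 465.3 TPM, next to 142.3 to 232.0 TPM in the organs.

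The largest ESC increase was that of Psma8, at 25.4 and 30.6 TPM in ESC and 0.37 to 2.23 TPM in the organs, a log2 fold change of 4.94 ± 0.18 (adjusted p = 3.94e-09). Psma8 passed the filter of a mean of 1 TPM only through its ESC libraries, so the test adds no support to its level there. Psmc3ip was higher by 2.98 ± 0.17, and Psmg1, a partner of Psmg2 in the assembly of the alpha ring, by 2.18 ± 0.07. Psme4 was higher by 2.08 ± 0.17, although its ESC libraries were far apart, at 244.2 and 129.3 TPM. Psmb8 was lower by 5.71 ± 0.21 (adjusted p = 4.29e-09), Psmb10 by 2.71 ± 0.09 and Psmb9 by 2.47 ± 0.22. Psme1 at -0.63, Psme2 at -0.43 and Psmd9 at -0.26 were the other genes that fell. Psmf1, which encodes the inhibitor PI31, did not pass the test, with -0.03 ± 0.07.

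Thus 41 genes were higher in ESC and 6 lower, next to 49.8% and 34.3% of all genes, with a median of 1.06 against 0.36. Centring changed this to 39 and 8, against 41.2% and 42.9%. Antigen processing genes were lower for 9 of 13, led by the MHC class I gene H2-D1 with -4.26 and by the peptidase Erap1 with -4.25. Among the 11 other factors 6 were higher and 1 lower, or 5 and 3 after centring with the deubiquitinase Usp14 at 1.91 and the glycanase Ngly1 at -2.16.

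**Figure D2:**
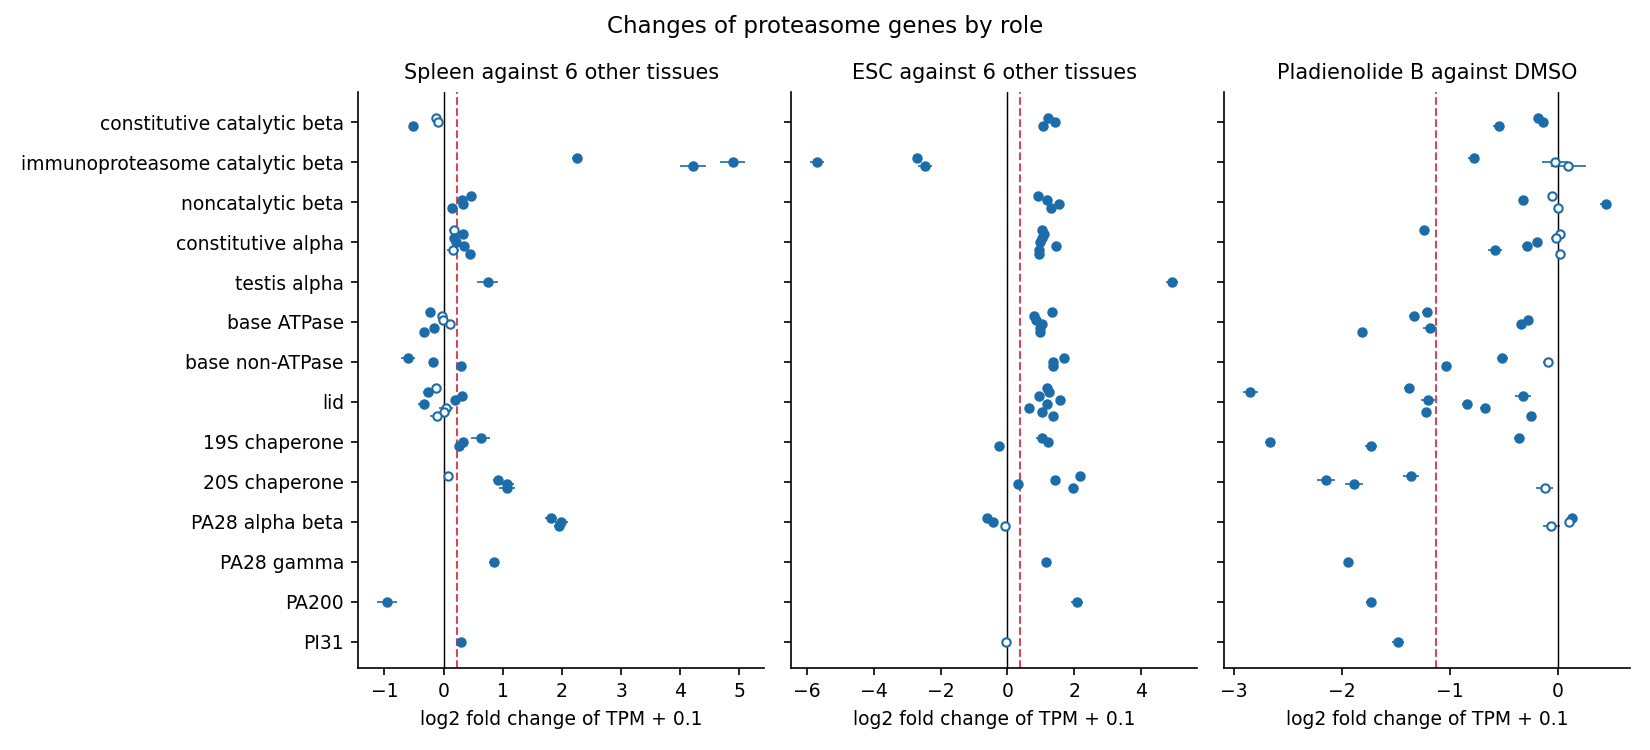
Log2 fold changes of TPM + 0.1 of proteasome genes by role, in spleen and ESC against the mean of the 6 other tissues and after pladienolide B against DMSO. Each point is a gene with its standard error, filled where the adjusted p was under 0.05, and the dashed line is the median of all genes. Immunoproteasome subunits lie between 2.26 and 4.89 in spleen and between -5.71 and -2.47 in ESC.

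In the other organs the count of members on either side moved with the scaling, and the mean they were set against included ESC. Cortex had 7 higher and 22 lower on the TPM scale, against 51.1% and 31.1% of all genes, and 0 and 48 after centring, against 31.2% and 52.2%. Psmb9 with -3.31 ± 0.22, Psmb8 with -2.88 ± 0.21 and Psme2b with -1.72 ± 0.09 were lower there on both scales. The ATPase Psmc5 with 0.68, the lid deubiquitinase Psmd14 with 0.53 and Psmf1 with 0.42 were higher on the TPM scale and had negative values after centring, at -0.14, -0.30 and -0.40. Antigen processing genes were lower in cortex for 13 of 13.

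Heart had 6 genes higher and 28 lower, against 20.1% and 59.4% of all genes, and 31 and 3 after centring, against 34.4% and 36.8%. On both scales Psme1 with 0.93, Psme4 with 0.81 and Psmb10 with 0.67 were higher in heart. Psmd5, an assembly chaperone of the 19S cap, was at 14.5 and 15.4 TPM in heart, lower by 1.35 ± 0.06 (adjusted p = 3.05e-08) and below every other tissue library. Psmd14 with -0.93 and Psmd10, another cap chaperone, with -0.83 followed, the latter with -0.23 (adjusted p = 0.31) after centring.

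Kidney had 7 genes higher and 24 lower, against 30.9% and 35.9%, and 2 and 29 after centring, against 27.5% and 41.7%. The total of 31 came to 14 without kidney replicate 1 and 18 without kidney replicate 2. The lid subunit Psmd3 was at 104.3 and 110.7 TPM in kidney and higher by 0.73 ± 0.10, Psme4 by 0.48 and Psmd9 by 0.26, the last not past the test after centring. Psma8 with -1.36, at 0.68 and 0.46 TPM in kidney, Psmb10 with -1.08 and Psmb9 with -0.84 were lower. As in lung, the test adds no support to a fall of Psma8. The call of Psme4 was lost without either kidney library, and those of Psmd9 and Psmb9 without kidney replicate 1.

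Liver had 2 genes higher and 41 lower, against 11.2% and 80.6%, and 47 and 1 after centring, against 39.5% and 34.2%. The median of all genes in liver was -1.58 on the TPM scale and that of the members -0.56, so 48 of the 49 lay above the median of all genes. Both liver libraries lay below every other tissue library for 21 members, against 46.2% of all genes. Psmc3ip, at 0.38 and 0.25 TPM, was lower on both scales, with -4.05 and -2.41. Psmg2 and Psmg4, with -1.35 each, were at 0.29 each after centring. Psmb8 with 0.60 ± 0.21 and the lid subunit Psmd11 with 0.18 ± 0.06 were higher, and both calls were lost without either liver library.

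After 4 h of pladienolide B the TPM of most genes fell, with a median log2 fold change of -1.13 over 13221 genes, and that of the 48 proteasome genes was -0.44. TPM gives shares of the mRNA and not amounts, so each change is to be read against the median of all genes. On the TPM scale 3 of the 48 were higher and 34 lower, against 15.8% and 73.1% of all genes. After centring 36 were higher and 8 lower, against 51.5% and 36.6%. The 8 genes lower on both scales were Psmd12, Psmd5, Psmg2, Psme3, Psmg3, Psmc6, Psme4 and Psmd9.

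Psmd12, a scaffold of the lid, went from 78.8 and 81.8 TPM after DMSO to 11.7 and 10.5 TPM, a log2 fold change of -2.85 ± 0.07 (adjusted p = 3.64e-06). Psmd5 went from 41.7 and 40.9 TPM to 6.36 and 6.49 TPM, or -2.67 ± 0.05 (adjusted p = 3.41e-06). Psmg2 went from 53.3 and 56.8 TPM to 13.3 and 11.5 TPM, or -2.15 ± 0.08 (adjusted p = 1.09e-05). These were the largest falls, and in each the libraries of the treatments were far apart. Psme3 fell by 1.95 and Psme4 by 1.73, so that the ratio of Psme1 to Psme3 went from 0.899 and 0.932 to 3.85 and 3.87.

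The subunit lists differed in their range. Each of the 8 lid genes (median -1.02), 6 ATPase genes (median -1.2) and 3 cap chaperones (median -1.73) was lower on the TPM scale, and after centring 6, 4 and 1 of them were higher. The alpha list had 4 of 7 lower, with a median of -0.19, and the noncatalytic beta list 1 lower (Psmb2, -0.32) and 1 higher (Psmb3). All 7 alpha and all 4 noncatalytic beta genes were higher after centring. Psmb4, a noncatalytic beta subunit, held 272.8 and 277.3 TPM after DMSO and 274.6 and 275.1 TPM after the drug.

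Constitutive catalytic subunits fell slightly on the TPM scale, Psmb5 by 0.18 ± 0.04, Psmb6 by 0.14 ± 0.04 and Psmb7 by 0.55 ± 0.05, and had positive values after centring, at 1.24, 1.29 and 0.88. The TPM call of Psmb6 was lost without DMSO replicate 1, DMSO replicate 2 or PladB replicate 2, and that of Psmb5 without DMSO replicate 2. Psmb10 went from 20.6 and 21.4 TPM to 12.2 and 12.3 TPM, or -0.78 ± 0.05, and was at 0.65 after centring. Psmb8 and Psmb9 stood at 1.55 to 1.73 and 0.93 to 1.12 TPM and did not pass the test (adjusted p = 0.829 and 0.6). The immunoproteasome ratio was 0.046 and 0.0489 after the drug. Higher on both scales were Psmc3ip with 0.70 ± 0.06, Psmb3 with 0.44 ± 0.05 and Psme1 with 0.12 ± 0.04, the last with an adjusted p of 0.0333 that was lost when any library was left out. Both drug libraries lay below both DMSO libraries for 36 genes, above them for 4, and overlapped for 8. The share of all 13221 genes with these properties was not counted, so these counts do not set the proteasome genes apart. Of all genes 73.1% were called lower on the TPM scale.

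**Figure D3:**
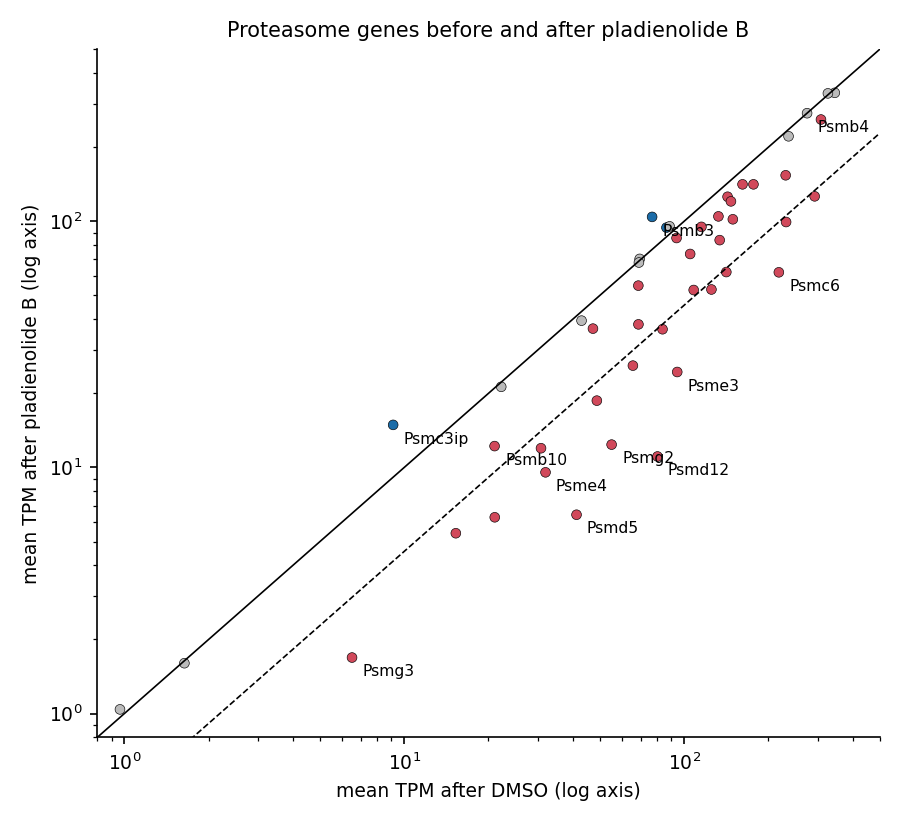
Mean TPM of 2 libraries after DMSO and after pladienolide B for 48 proteasome genes, on log axes. Red points were called lower, blue points higher and grey points neither on the TPM scale, the solid line marks equal TPM and the dashed line the median change of all genes, -1.13 on the log2 scale. Psmd12 and Psmd5 lie farthest below the dashed line and Psmc3ip and Psmb3 lie above the solid line.

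Pathway genes outside the list included larger falls. Of 11 other proteasome factors 8 were lower and 3 higher after the drug, next to 73.1% and 15.8% of all genes. After centring the counts were 6 and 3, next to 36.6% and 51.5%. On the TPM scale Akirin2, which brings proteasomes into the nucleus, was at -3.67, Ngly1 at -2.34 and the ubiquitin receptor Adrm1 at -2.34. Pomp, the maturation factor of the 20S core, was higher by 0.61. Of 12 antigen processing and interferon genes 5 were higher and 6 lower, or 9 and 2 after centring. The largest falls on the TPM scale were those of Stat2 at -3.94, Tap1 at -2.17 and Nlrc5 at -1.60.

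Splicing of proteasome exons was tested with a logistic model of inclusion against skipping junction reads. An event was called at an adjusted p under 0.05 and a PSI difference of at least 0.1, with 20 or more reads per library. The fit between tissues held 191 member events from 163 exons of 44 genes, with median reads per library of 1892 to 4312. In 173 of them (90.6%) the lowest tissue mean was at least 0.95, a property of 67.6% of all 47963 events. In fibroblasts the lower of the treatment means was at least 0.95 for 249 of 267 member events (93.3%), and for 74.6% of all 54535. The differences of 2 member events were called, and 7.57% of all events were.

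The exon of Psmg4, a partner of Psmg3 in core assembly, at chr13:34166061-34166136 was the more variable of the called exons. Its PSI was lowest in heart, with 0.510 and 0.558, and highest in liver, with 0.802 and 0.765. The other organs lay between 0.572 and 0.701 and the ESC clones at 0.712 and 0.812. The difference between heart and liver was 0.249 (adjusted p = 0.0183), and its call was lost without either heart library. The exon of Psma4, an alpha subunit, at chr9:54951344-54951428 was included at 0.259 and 0.237 in heart and at 0.041 to 0.071 in the 12 other libraries (adjusted p = 4.29e-07). The number of called events was 1 without either heart library, 4 without ESC replicate 1 and 5 without ESC replicate 2.

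Reads that cover a strain variant allow the alleles to be compared inside each library. Differences below are C57BL/6J minus SPRET/EiJ in PSI, tested per tissue and without the library as a block, where PSI from allelic reads lay within 0.1 of that from all reads. Among member events 1 of 77 was called in cortex (1.81% of all events), 1 of 80 in heart (1.68%), 0 of 107 in kidney (1.63%), 2 of 88 in lung (1.68%), 1 of 109 in spleen (1.56%) and 1 of 80 in liver (1.08%). In ESC 0 of 164 were called (0.0258%). At an unadjusted p under 0.05 there were 7 in kidney (12.6% of all events) and 2 in ESC (3.13%). After DMSO 1 of 100 was called (2.64%) and after pladienolide B 1 of 215 (1.68%). When the library was added as a replicate block, calls were also made for 2 member events in kidney and 1 more in liver.

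The Psmg4 exon was called in heart, lung, spleen and liver. In heart the C57BL/6J allele had a PSI of 0.194 and 0.335 and the SPRET/EiJ allele 0.633 and 0.659, a difference of -0.382 (adjusted p = 0.0258). In liver the values were 0.589 and 0.605 against 0.930 and 0.875 (-0.305, adjusted p = 0.0329), in lung 0.466 and 0.499 against 0.691 and 0.764 (-0.245, adjusted p = 0.031), and in spleen 0.519 and 0.551 against 0.719 and 0.756 (-0.203, adjusted p = 0.0164). The alleles did not overlap in these organs, and the SPRET/EiJ allele included the exon more often. Kidney, at -0.161, was called only with the block (adjusted p = 0.0204, and 0.198 without it). In cortex the alleles overlapped, with 0.606 and 0.643 against 0.602 and 0.628. The calls in heart, lung and liver were lost with a prior that did not follow read depth.

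The same exon was called in DMSO-treated fibroblasts, with 0.713 and 0.695 on the C57BL/6J allele and 0.845 and 0.845 on the SPRET/EiJ allele (-0.141, adjusted p = 0.0041), though not without either library. After pladienolide B the values were 0.647 and 0.683 against 0.753 and 0.757, which did not pass the test (adjusted p = 0.278).

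Psmd5 differed between alleles in cortex, at the exon chr2:34866893-34867037. Its PSI was 0.869 and 0.902 on the C57BL/6J allele and 0.584 and 0.644 on the SPRET/EiJ allele, a difference of 0.272 (adjusted p = 0.0187). This call was lost when the dispersion of an event was shared over the tissues. In the other organs and ESC the differences ran from -0.013 to 0.123 and were not called. After pladienolide B the same exon had 0.864 and 0.905 against 0.459 and 0.576, a difference of 0.367 from 54 to 158 reads per allele. This passed only with the library as a block (adjusted p = 0.0322, and 0.0827 without it). After DMSO the difference was 0.024.

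Other allelic calls were few. The Psme2 exon chr14:55589481-55589705 was included at 0.894 and 0.855 on the C57BL/6J allele and 0.994 and 0.986 on the SPRET/EiJ allele in lung (-0.115, adjusted p = 0.0373), and in kidney the difference was -0.121 (adjusted p = 0.105, and 0.0211 with the block). The Psmd12 exon chr11:107494630-107494804 differed after pladienolide B, with 0.853 and 0.750 against 0.992 and 1.000 (-0.194, adjusted p = 0.0259). That call was lost without either drug library, and its DMSO values were not tested. For the heart exon of Psma4 the allelic reads gave 0.781 and 0.723 on the C57BL/6J allele and 0.109 and 0.132 on the SPRET/EiJ allele. Their PSI differed by 0.336 from that of all reads, and the event was left out of the test. In liver its difference of 0.105 was called only with the block (adjusted p = 1.85e-06, and 0.0955 without it).

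**Figure D4:**
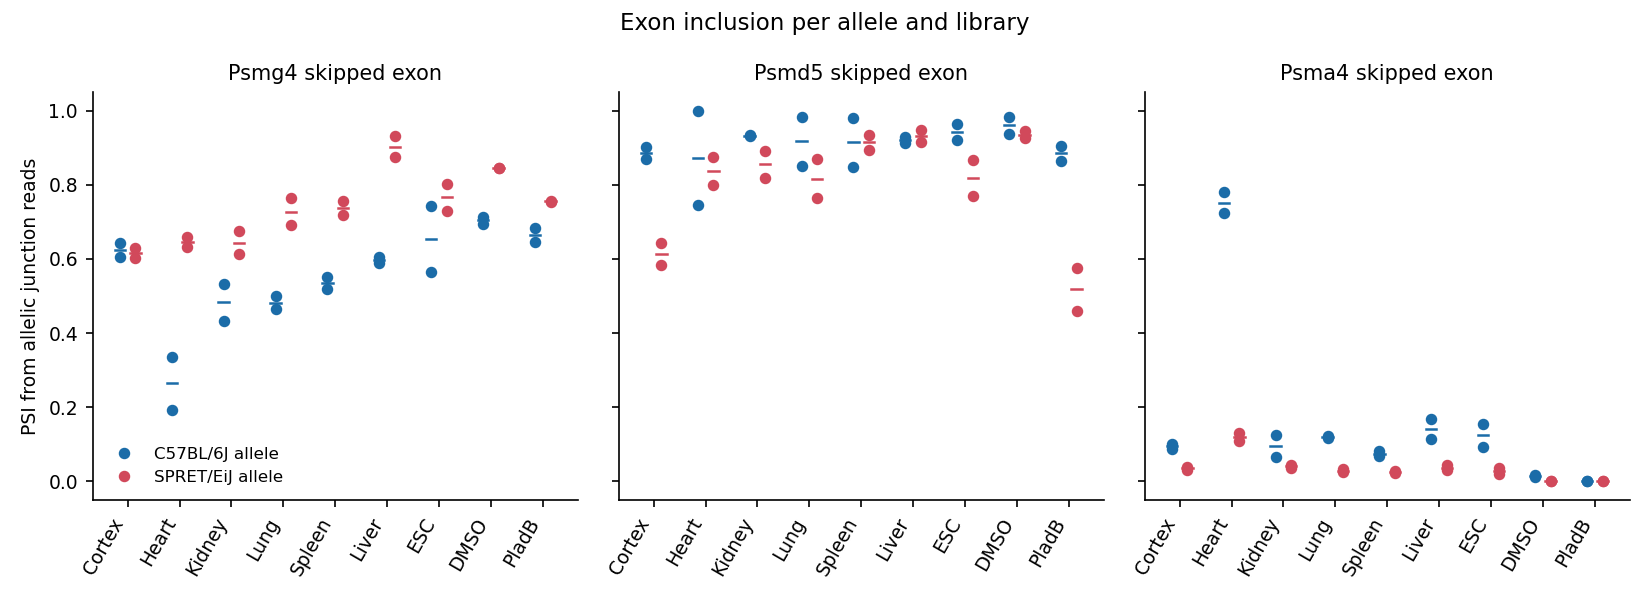
PSI of 1 exon each of Psmg4, Psmd5 and Psma4 from allelic junction reads, with a point per library and a bar at the mean of 2, in the 9 groups. The SPRET/EiJ allele of Psmg4 lies above the C57BL/6J allele in heart, lung, spleen and liver, the C57BL/6J allele of Psmd5 lies higher in cortex and after pladienolide B, and Psma4 in heart reaches 0.781 on the C57BL/6J allele.

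Whether the drug changed an allelic difference was tested as an interaction of allele and treatment. None of 74 member events was called by the quasi-binomial model, and 0% of the 13352 events were. Of the member events 1 had an unadjusted p under 0.05 (Psmc1, named after its value was seen), as did 4.17% of all events, and with the library as a block the model called 0 members. For the Psmd5 exon the change in the allelic difference was 0.342 (adjusted p = 0.937).

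The skipped exons called after pladienolide B all had lower inclusion. In 249 of 267 member events both treatment means were at least 0.95, so that PSI had little room to rise in them. The part of the starting level in the direction was not tested. Of 267 member events from 203 exons of 42 genes, 4 were called lower (8.27% of all events were) and 0 higher (0.171%). The largest increase in PSI was 0.016, and 2 member events had a higher PSI at an unadjusted p under 0.05, as did 1.36% of all events. Without the limit on size, 56 events from 51 exons of 27 genes passed the adjusted p, and all had a lower PSI. Of all events 19.3% were lower and 0.528% higher by that rule.

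The Psmd5 exon fell the most, from 0.951 and 0.945 to 0.593 and 0.662 (adjusted p = 4.71e-06), where the drug libraries held 129 and 189 inclusion reads and 45 and 49 skipping reads. This is the exon that differed between alleles in cortex. An exon of Psme4 (chr11:30819004-30819071) fell from 1.000 in both DMSO libraries to 0.884 and 0.833 (adjusted p = 0.00146). The DMSO libraries held 0 skipping reads of 250 and 248, which allows up to 1.2% and 1.21% of reads. The Psmd12 exon fell from 0.999 and 1.000 to 0.926 and 0.856 (adjusted p = 1.66e-05). An exon of Psmd7, another lid subunit (chr8:107584863-107584960), fell from 0.999 and 1.000 to 0.904 and 0.881 (adjusted p = 1.51e-08). The calls of Psmd12 and Psmd7 were lost without PladB replicate 2, when their differences were -0.074 and -0.095 and 2 events were called. Psmd5, Psmd12 and Psme4 were also among the genes whose TPM was lower on both scales.

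Retained introns were more often higher than lower after the drug. Of 20 member introns in 14 genes, 2 were called higher and 0 lower, against 35.2% and 3% of all 1802 introns. The counts cover few genes, and the introns of a gene share its reads. An intron of Psmd4, the ubiquitin receptor of the base, between the exon ends 95033764 and 95033909 on chromosome 3, rose from 0.018 and 0.010 to 0.149 and 0.170 (adjusted p = 2.64e-10). A deeper entry of this intron, ending at 95033918, rose by 0.093, from 0.028 and 0.018 to 0.111 and 0.121, and was not called. An intron of Psma4, between 54952108 and 54952341 on chromosome 9, rose from 0.003 and 0.002 to 0.112 and 0.138 (adjusted p = 2.81e-13). Without the limit on size 9 introns of 6 genes were higher (Psmd4, Psma4, Psmd5, Psmc4, Psmd2 and Psmd3) and 3 lower, next to 48.2% and 7.77% of all introns. The 9 include both entries of that Psmd4 intron. Those lower were 1 intron of Psma3, from 0.024 to 0.005, and 2 of Psme1, whose TPM was higher after the drug.

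**Figure D5:**
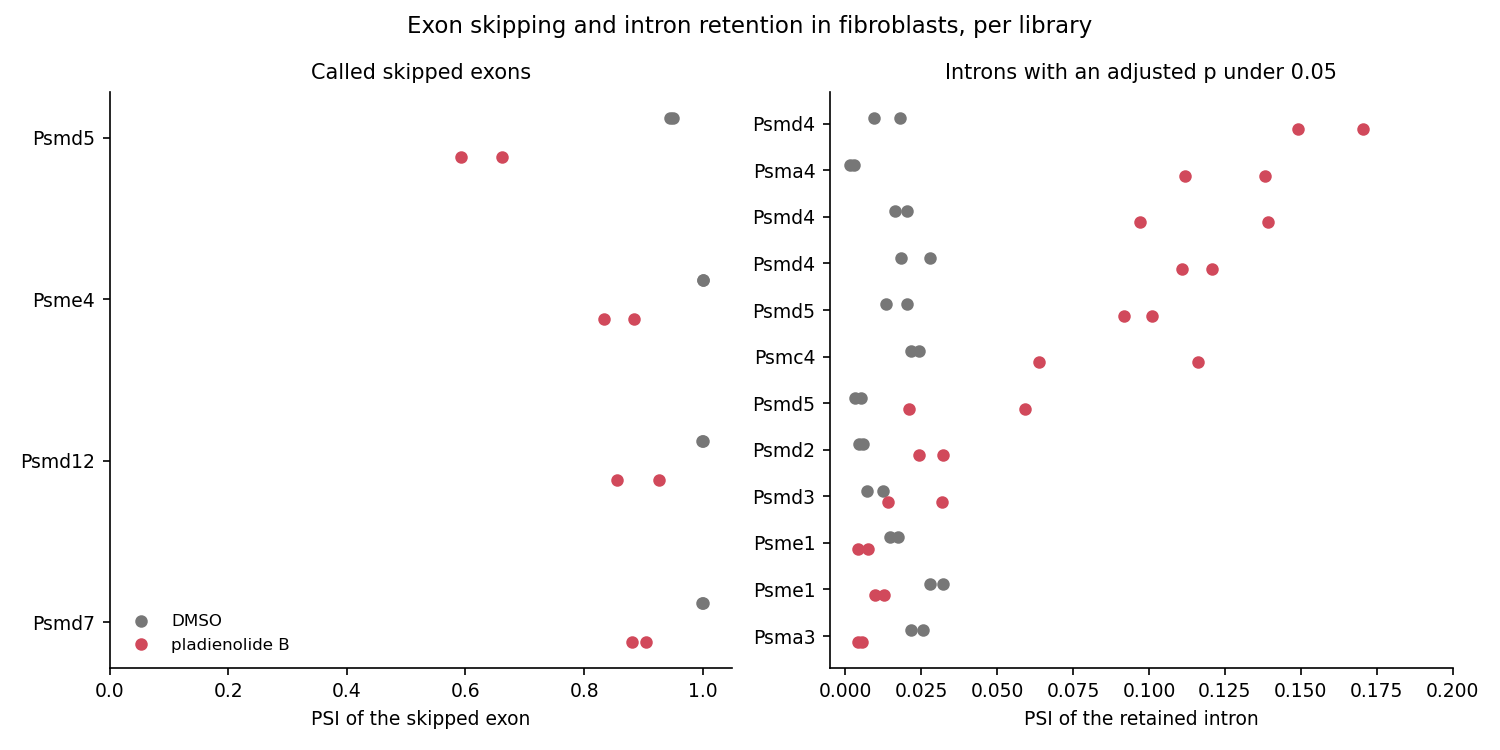
PSI of the 4 called skipped exons and of the 12 retained introns with an adjusted p under 0.05, per fibroblast library after DMSO (grey) and pladienolide B (red). A gene named more than once has several entries, and Psmd4 has an intron listed with different ends. The exons lie at 0.593 to 0.926 after the drug, and the introns of Psmd4 and Psma4 at the top reach 0.170 and 0.138.

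At the deepest event of each gene, the median share of C57BL/6J reads ran from 47.8% after DMSO to 50.9% in heart, over 23 to 38 genes per group. Between 40% and 60% lay 35 of 37 genes in spleen and 33 of 38 in ESC, but 21 of 28 after DMSO and 26 of 32 after pladienolide B. In fibroblasts the shares ran from 29.5% for Psmd11 after the drug to 67.6% for Psmb2 after the drug, with Psmb7 at 32.9% and Psmd1 at 67.1% after DMSO. Psme2 stood apart, with 80.1% to 82.6% in the 6 organs and 61.4% and 62.3% in the fibroblast groups. At another exon of Psme2, the one called in lung, the shares ran the other way, with 304 and 284 inclusion reads on the C57BL/6J allele and 1407 and 1372 on the SPRET/EiJ allele. Whether reads of the copy Psme2b entered these counts was not tested. Psma5 had the lowest share in kidney, lung, spleen and liver, down to 34.4%. The liver libraries differed for Psmd8, with 100% in replicate 1 and 44.5% in replicate 2, from 8592 reads. The cause of that difference was not tested.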

How the data were processed

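The series held 18 RNA-seq libraries. The authors aligned reads with HISAT2 2.0.1 to mm10 and to a genome carrying the SPRET/EiJ variants, assigned reads to an allele by edit distance, and counted junction reads with rMATS. The deposited junction counts are raw, with both replicates of a group in 1 list, and the position in the list was taken as the replicate number. The deposited effective lengths are a score that rMATS wrote for each form. The deposited p-value, FDR, inclusion level and inclusion level difference columns hold the authors' own comparisons and were not used. The deposited TPM were made by the authors from featureCounts counts of all reads.

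TPM were compared on log2(TPM + 0.1) with limma 3.58.1 (R 4.3.3), with 1 mean per tissue, a trend in eBayes and genes of a mean of at least 1 TPM. PSI was computed from counts and effective lengths. A quasi-binomial model with a dispersion of at least 1, moderated by squeezeVar toward a prior that follows depth, gave F tests with Benjamini-Hochberg adjustment over all events. Events with 5 fitted reads of both forms in every library set the prior. This rule replaced another after call counts under that rule had been seen, and the model was tested on simulated data after. Events on sex chromosomes were left out of splicing. Member events had median junction reads per library of 1892 to 4312 in tissues. Replicates measure only the spread between 2 libraries, and limits from 0 counts cover counting error only.

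Named were all catalytic, immunoproteasome and PA28 genes, the 3 largest changes per comparison and direction, and called events, at most 10. The members, lists and this rule were chosen with earlier results of these data known. Alternatives changed the pseudocount, filter, scaling, minimum reads, prior, block and libraries. Promoter and protein sequences were not analysed here. Coordinates of genes are those of RefSeq for GRCm38.p6, and those of exons the deposited ones on mm10, counted from 1.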

Additional observations from a re-analysis of the deposited data

Results flagged for a closer look

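The allelic difference of the Psmg4 exon was positive in both cortex libraries, at 0.0090 on average, and negative in both libraries of heart, kidney, lung, spleen, liver and ESC. The Psme2 exon had a difference of 0.0038 in heart, positive in both libraries, and a negative one in both libraries of lung, where it was called. The differences between these tissues were not tested.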

How the results depend on the processing

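Centring each library on its median raised the genes called in cortex from 29 to 48. It reversed the log2 fold changes of Psmc5 (-0.14), Psmd14 (-0.30) and Psmf1 (-0.40) in cortex, Psmf1 in spleen (-0.16), Psmg4 and Psmg2 in liver (0.29 each), and after pladienolide B Psmb5 (1.24), Psmb6 (1.29), Psmb7 (0.88), Psmb8 (1.40), Psmb10 (0.65) and Psme2b (1.36). Quantile normalisation reversed Psmf1 in cortex (-0.31) and spleen (-0.088), and after the drug Psmb5 (0.026), Psmb6 (0.27), Psmb8 (1.42), Psmb10 (0.59), Psme2b (1.19) and Psmf1 (0.077). Leaving out 1 library gave -0.10 to 0.044 for Psmb8 and -0.15 to 0.025 for Psme2b (reversed without DMSO replicate 2) and -0.0064 to 0.20 for Psmb9 (reversed without PladB replicate 2). A prior without depth trend called 0 events between alleles after pladienolide B. Leaving out each library gave 21 to 37 genes in cortex, 23 to 39 in heart, 14 to 37 in kidney, 22 to 39 in lung, 30 to 42 in spleen, 31 to 47 in liver, 45 to 47 in ESC and 34 to 37 after the drug. It gave 1 to 5 exons between tissues, 2 to 4 between alleles in tissues, 0 to 1 after DMSO and after pladienolide B, 0 for the interaction, 2 to 4 for the drug and 2 to 3 introns. With the replicate number as a block, 47 genes were called in ESC, 43 in liver, 37 in spleen, 33 in heart, 30 in lung and in kidney, 29 in cortex and 35 after the drug, and no TPM or treatment count moved by over 1.5 times. After the drug Psme1 and Psmb6 lost their calls with it. Whether a number marks 1 animal is not given in the sources used here. Deviations of same-numbered libraries correlated at 0.037 to 0.21 in the 15 organ pairs (7 above 0.1), at -0.042 to 0.048 in pairs with ESC or fibroblasts, and between treatments at 0.005 for exons and -0.006 for introns. Alleles share a library (0.04 to 0.42), and the library as a replicate block called 4 events between alleles in tissues, 1 after DMSO, 2 after pladienolide B and 0 for the interaction. The causes of these changes were not tested. With 2 libraries per group, small differences in PSI in shallow events were not detectable at this depth.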
